A study of Mus musculus with 4 samples.

Results

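The genes described here were the drivers written into the genotype of a mouse ovarian tumor model and the partners and targets through which those drivers are usually read: Trp53, Brca1, Myc and Akt1, the MYC partner Max, and the p53 targets Cdkn1a, Mdm2 and Ccng1. They were taken by symbol from the gene table, which gave 8 genes of 32285. The data were 4 single-cell libraries (10x Genomics, 3′ ends) of ascites, the fluid that gathers in the abdomen, from female FVB mice collected 6 weeks after tumor cells were injected. 2 libraries were labelled siCont, a scrambled control siRNA, and 2 were labelled siFXR1-LNA, an siRNA against Fxr1. Per the study's methods both siRNAs carried locked nucleic acids (LNA) and were given in the same polymer carrier, and each library pooled the ascites of several mice, so the mice of a pool cannot be told apart and the libraries were the replicates (n = 2 per group). All mice carried Br-Luc tumors, with the genotype p53−/−; brca1−/−; myc; Akt-myr, so controls and treated mice shared these alleles and no library came from a tumor without them. The ascites also held host cells of the FVB strain, and Br-Luc is 1 cell line.

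p53 is a transcription factor that halts the cell cycle or starts cell death after DNA damage, and Cdkn1a, Mdm2 and Ccng1 are among the genes it switches on. Mdm2 in turn marks p53 for destruction, which closes a feedback loop. BRCA1 acts in the repair of broken DNA in dividing cells, MYC binds DNA as a pair with MAX and raises genes of growth and ribosome production, and AKT1 is a kinase that carries growth factor signals, made constantly active when a myristoyl tag (Akt-myr) holds it at the membrane. High-grade serous ovarian tumors commonly lose p53, and many lose BRCA1 or BRCA2.

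Barcodes were sorted by marker genes fixed for the purpose. A tumor-type barcode had at least 5 unique molecules (UMIs) summed over Wt1, Zfpm2, Kcnd2, Tenm3 and Bnc2 and fewer than 5 on every immune list. Of 132644 barcodes kept, 2579 were tumor-type. The siCont libraries held 749 and 109 of them, and the siFXR1-LNA pair 1369 and 352. The marker genes that chose these barcodes are no result. Other markers were mixed: the keratins Krt8, Krt18 and Krt19 and the mesothelial genes Upk3b, Lrrn4 and Msln were all present, Epcam was low at 5.4, 5.7, 2.6 and 19.7 CPM (UMIs of a gene per 1e+06 UMIs of the sum), and the fibroblast gene Dcn stood at 458 to 564 CPM. Wt1, Bnc2, Upk3b and Lrrn4 are also genes of the host's own mesothelium, so tumor cells and host mesothelial or stromal cells cannot be told apart by these markers, and tumor-type is used here as the name of the gate.

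Facts of the libraries that touch the results are these. Fxr1, the targeted gene, was not lower in the libraries labelled siFXR1-LNA: tumor-type barcodes held 112 and 136 CPM in siCont and 141 and 137 CPM in siFXR1-LNA. Every direction below between groups is therefore between libraries so labelled. The study's own analysis left out a siFXR1-LNA library, not named by its replicate number, for its few reads, and both siFXR1-LNA libraries are used here. Total UMIs were 78179267 to 113606837 per library, and pairs of libraries shared 598 to 2882 barcode sequences. The median mitochondrial share of tumor-type barcodes was 0.531% and 0.576% in siCont and 1.91% and 3.82% in siFXR1-LNA, hemoglobin genes took 8.08% and 9.52% against 3.03% and 1.70% of their UMIs, and Muc16, a tumor and mesothelial surface mucin, stood at 317 and 304 CPM against 83.0 and 67.6 CPM. The part of these differences in the results was not tested. Barcodes of at most 4800 genes were kept, and this limit removed 16.1%, 43.5%, 6.62% and 42.5% of the barcodes past the tumor gate in siCont replicates 1 and 2 and siFXR1-LNA replicates 1 and 2.

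In GRCm38 (mm10, GENCODE annotation) the 8 genes lie with Trp53 at chr11:69580359-69591873 on the plus strand, Brca1 at chr11:101488764-101551955 and Ccng1 at chr11:40748552-40755311 on the minus strand, Cdkn1a at chr17:29090976-29100727 on the plus strand and Mdm2 at chr10:117688875-117710758 on the minus strand. Myc lies at chr15:61985391-61990374 on the plus strand, Akt1 at chr12:112653821-112674884 and Max at chr12:76937269-76962201 on the minus strand. Within these spans the annotation also places Mir6939 in Akt1 and Gm47218 in Max on the same strand, and a gene model of the opposite strand in Cdkn1a. Since p53 reads DNA by sequence, the promoters of the 4 genes of the p53 loop that matched its site are shown. RefSeq promoter windows (300 bases, 250 before to 50 after a start site, GRCm38.p6) existed for 7 of the 8 genes in 9 windows, and the p53 half-site was found on either strand in the windows of 4 genes, beside 8.36% of 32817 promoter windows. The 250 bases before the start site are printed with the half-sites in capitals:

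Trp53, chr11:69580109-69580358, plus strand: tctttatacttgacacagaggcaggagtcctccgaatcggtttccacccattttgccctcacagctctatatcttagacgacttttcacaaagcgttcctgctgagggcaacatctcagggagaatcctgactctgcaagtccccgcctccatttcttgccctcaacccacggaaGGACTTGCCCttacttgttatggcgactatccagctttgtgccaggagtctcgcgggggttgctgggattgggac
Cdkn1a, chr17:29090729-29090978, plus strand: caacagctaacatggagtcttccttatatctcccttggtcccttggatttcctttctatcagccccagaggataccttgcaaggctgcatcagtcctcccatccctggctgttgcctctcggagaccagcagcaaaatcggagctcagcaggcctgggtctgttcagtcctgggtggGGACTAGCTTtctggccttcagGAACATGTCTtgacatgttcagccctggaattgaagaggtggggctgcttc
Mdm2, chr10:117710759-117711008, minus strand: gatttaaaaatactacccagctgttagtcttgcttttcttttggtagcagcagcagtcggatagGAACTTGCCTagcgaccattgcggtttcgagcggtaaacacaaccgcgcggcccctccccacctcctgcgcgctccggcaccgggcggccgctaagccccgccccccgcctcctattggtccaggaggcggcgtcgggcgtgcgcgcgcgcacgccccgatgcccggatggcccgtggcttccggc
Ccng1, chr11:40755287-40755536, minus strand: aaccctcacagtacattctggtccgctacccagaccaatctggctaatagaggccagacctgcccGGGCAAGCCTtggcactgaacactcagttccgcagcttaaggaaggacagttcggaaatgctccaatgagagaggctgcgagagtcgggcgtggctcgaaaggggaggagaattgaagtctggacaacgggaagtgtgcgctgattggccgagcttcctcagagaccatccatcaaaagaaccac

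A second Cdkn1a window, at its downstream start site, held no match. The E-box CACGTG, the site that MYC and MAX bind, was found in the windows of Trp53 and Max and in 7.15% of all windows. Myc had no window. A match is a run of letters and not a shown binding site.

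The first comparison asked how the level of each gene in tumor-type barcodes stood against the immune cells of the same fluid. UMIs were summed over the barcodes of each type in each library and tested with edgeR, with the library as a block and the tumor-type sum set against the mean of 5 immune types (macrophage-, neutrophil-, B-, T- and DC-type). Akt1 and Max were lower in tumor-type barcodes, Ccng1 was also lower, Trp53 was called lower in a way that did not hold over the alternatives, and Mdm2, Brca1, Myc and Cdkn1a did not pass the test. Because 74.1% of 13712 genes were called in this contrast, 36.3% of all genes tested as higher and 37.8% as lower, the count of 4 called genes of 8 says little in itself. The scaling of the sums moved every gene: by library size alone, an alternative chosen after seeing the data, the median gene stood at 0.61 on the log2 scale in place of −0.05 under TMM scaling, a shift of 0.66, and the share of calls that were higher went from 49.0% to 71.1%. Differences below are as fitted, and those by library size alone are also given relative to the median gene of that scaling.

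**Figure D1:**
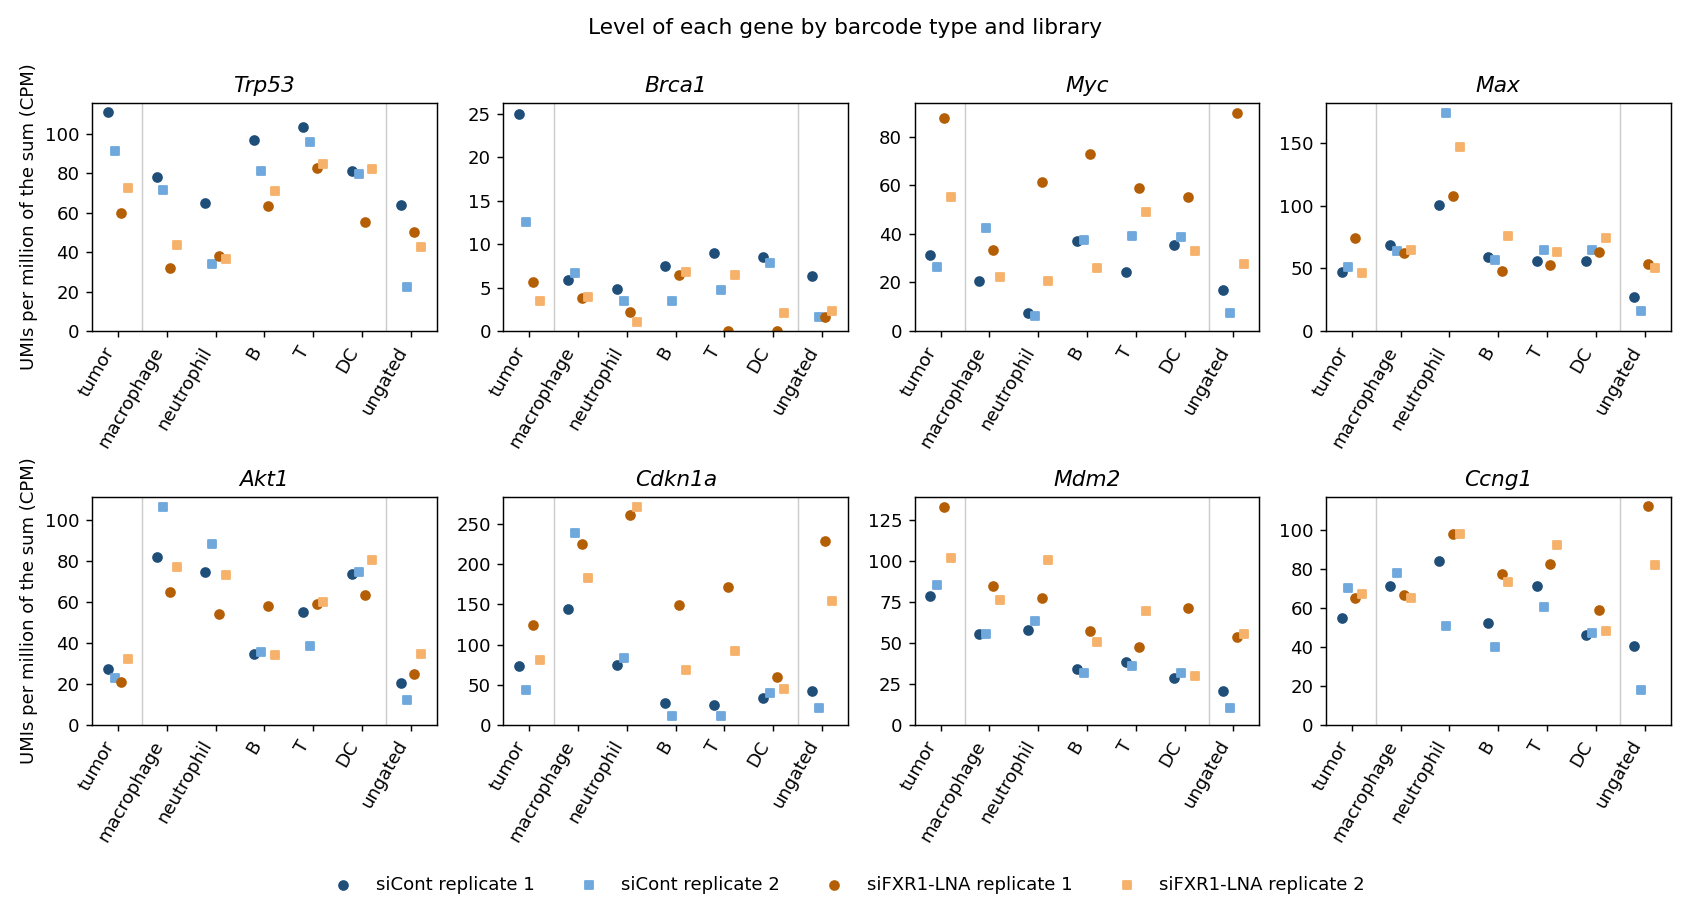
CPM of the 8 genes, one panel each, by barcode type. Every point is the sum of one library, siCont in blue and siFXR1-LNA in orange. Ungated barcodes, past no marker list, stand at the right, and what they hold was not tested. Akt1 in tumor-type barcodes (20.9 to 32.3 CPM) lay below the lowest immune sum (34.1 CPM), Trp53 in tumor-type barcodes (59.96 to 111 CPM) overlapped the immune sums (31.8 to 103 CPM), and Myc of siFXR1-LNA replicate 1 was as high in ungated (89.7 CPM) as in tumor-type barcodes (87.6 CPM).

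Trp53 transcripts were plentiful in the tumor-type barcodes. Levels of 111 and 91.1 CPM were found in replicates 1 and 2 of siCont, and 59.96 and 72.5 CPM in those of siFXR1-LNA, and 40.5%, 41.3%, 26.7% and 36.6% of tumor-type barcodes held at least 1 UMI. Macrophage-type barcodes held 77.9, 71.7, 31.8 and 43.4 CPM and T-type barcodes 103, 96.0, 82.7 and 84.7 CPM in the same order. In CPM the tumor-type level lay above the macrophage-type level in every library, and T-type and tumor-type levels crossed. Under TMM scaling the difference from macrophage-type was −0.07 ± 0.14 (log2, SE; adjusted p = 0.636) and from neutrophil-type 0.07 ± 0.15 (adjusted p = 0.682). Trp53 was lower than in T-, B- and DC-type barcodes, at −0.62 ± 0.15, −0.49 ± 0.14 and −0.51 ± 0.15 (edgeR adjusted p = 0.000843, 0.00409 and 0.00416). These calls held in 13, 12 and 12 of 15 alternatives, and 61.6%, 64.3% and 68.2% of all genes were called in these contrasts. Against the mean of the immune types Trp53 was called lower, at −0.32 ± 0.11 (adjusted p = 0.0118). By library size alone Trp53 was instead called higher by edgeR, at 0.34 ± 0.13 (adjusted p = 0.0216), which is −0.28 relative to the median gene. The call as lower against the mean was lost with RLE size factors (−0.17, adjusted p = 0.142) and without the limit on genes (0.02, adjusted p = 0.906). It was also lost without siCont replicate 1 (−0.28, adjusted p = 0.092), siFXR1-LNA replicate 1 (−0.27, adjusted p = 0.0566) or siFXR1-LNA replicate 2 (−0.11, adjusted p = 0.487). Against the mean Trp53 passed the test in 7 of 15 alternatives, and not every loss is named here. Which exons the p53 null allele lacks is not given in the sources used here and a 3′ count reads the end of a transcript, so these UMIs do not check the deletion, and host cells in the gate cannot be told apart from tumor cells.

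Brca1 was the sparsest of the 8 genes. Tumor-type barcodes held 115, 11, 43 and 9 Brca1 UMIs, or 25.0, 12.5, 5.7 and 3.4 CPM, against 5.9, 6.7, 3.7 and 3.9 CPM in macrophage-type and 7.5, 3.5, 6.4 and 6.8 CPM in B-type barcodes. In CPM the siCont tumor-type sums were the highest of all types in their libraries, while siFXR1-LNA replicate 2 lay among its immune types. The difference from the immune mean was 0.49 ± 0.30 (adjusted p = 0.138). By library size alone it was called higher by edgeR at 1.16 (adjusted p = 0.0014), which is 0.55 relative to the median gene. Against the mean it was called in 4 of 15 alternatives. Of the single types, Brca1 was called higher only against neutrophil-type barcodes (1.18 ± 0.47, edgeR adjusted p = 0.0303), kept in 13 of 15 alternatives. In that contrast 65.3% of all genes were called. Against the other types adjusted p ran from 0.404 to 0.661. As with Trp53, the ends of these transcripts do not check the brca1 deletion.

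Myc and Max, the partners of one DNA-binding pair, stood apart from each other. Myc levels in tumor-type barcodes were 31.5, 26.2, 87.6 and 55.1 CPM, within the immune range of 6.15 to 72.8 CPM except for siFXR1-LNA replicate 1, and the difference from the immune mean was −0.19 ± 0.25 (adjusted p = 0.496). Max was at 47.1, 51.3, 74.6 and 46.3 CPM in tumor-type barcodes and highest in neutrophil-type barcodes, at 101, 174, 108 and 147 CPM. It was lower in tumor-type barcodes than in the immune mean by −1.02 ± 0.18 (log2; adjusted p = 1.43e-05) and by −0.37 ± 0.14 under library size alone (adjusted p = 0.0229), or −0.99 relative to the median gene, and the largest single gap was to neutrophil-type barcodes, at −2.13 ± 0.22 (adjusted p = 9.1e-09). Whether reads of the Myc transgene carry the end of the mouse gene is not given in the sources used here, so its UMIs may or may not be in these counts.

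Akt1 gave the clearest difference. Tumor-type barcodes held 27.1, 22.8, 20.9 and 32.3 CPM, macrophage-type barcodes 82.0, 106, 64.6 and 76.8 CPM, and DC-type barcodes 73.6, 74.7, 63.2 and 80.4 CPM. In CPM the tumor-type sums lay below all 5 immune types in every library. The log2 difference from the immune mean was −1.89 ± 0.17 (adjusted p = 9.2e-10), and it ranged from −2.03 to −1.24 over the 15 alternatives with the call kept in all 15. Each single immune type was also higher, from B-type (−1.17 ± 0.20) to neutrophil-type (−2.35 ± 0.21), where 64.3% and 65.3% of all genes were called. In the T-type and DC-type contrasts, with 61.6% and 68.2% of genes called, Akt1 differed by −1.45 ± 0.21 and −2.14 ± 0.21, and 5 and 4 of the 8 members were called. A transgenic Akt-myr lacking the mouse 3′ end would not be counted here.

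The 3 p53 targets differed in which immune type they set apart. Cdkn1a, the p21 inhibitor of cyclin-dependent kinases, was at 73.2, 43.3, 124 and 80.9 CPM in tumor-type barcodes, below the 144, 239, 225 and 183 CPM of macrophage-type barcodes and beside 27.4, 10.6, 149 and 68.1 CPM in B-type and 25.4, 11.6, 171 and 92.6 CPM in T-type barcodes. The tumor-type level was thus above B- and T-type in siCont, while in siFXR1-LNA it was below both in replicate 1 and between them in replicate 2. These differences were 0.21 ± 0.42 for B-type (adjusted p = 0.679) and 0.21 ± 0.45 for T-type barcodes (adjusted p = 0.715). It was lower than in macrophage-type (−2.13 ± 0.42, adjusted p = 0.000119) and neutrophil-type barcodes (−1.86 ± 0.43, adjusted p = 0.000712), with 71.8% and 65.3% of genes called in those contrasts. The difference from the mean of the 5 types, −0.70 ± 0.34, did not pass the test (adjusted p = 0.0669).

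Mdm2, the ubiquitin ligase of p53, was the one member whose tumor-type sum, in CPM, was the highest of all types in every library. It held 78.4, 85.4, 133 and 102 CPM, against 55.4, 55.2, 84.8 and 76.4 CPM in macrophage-type and 28.4, 31.4, 71.1 and 29.9 CPM in DC-type barcodes. Under TMM scaling it was higher than in B-type (0.65 ± 0.17, adjusted p = 0.00217), T-type (0.51 ± 0.18, adjusted p = 0.0182) and DC-type barcodes (0.78 ± 0.19, adjusted p = 0.000754). Against macrophage-type barcodes it was at −0.15 ± 0.16 (adjusted p = 0.43). Against neutrophil-type barcodes it was lower under TMM (−0.49 ± 0.17, adjusted p = 0.0169), and the value by library size alone, 0.41, is −0.45 relative to the median gene of that scaling, which stood at 0.86. That call was lost with RLE size factors (−0.36, adjusted p = 0.0737) and without siCont replicate 1 (−0.41), siCont replicate 2 (−0.39) or siFXR1-LNA replicate 2 (−0.15, adjusted p = 0.576). The T-type call was lost without the limit on genes (0.32, adjusted p = 0.205) and without siCont replicate 2 (0.48, adjusted p = 0.0591). The contrast with the mean of the types was 0.26 ± 0.13 (adjusted p = 0.076), or 0.92 by library size alone, which is 0.31 relative to the median gene, and it passed the test in 6 of 15 alternatives, among them RLE size factors (0.41, adjusted p = 0.00762) and without siFXR1-LNA replicate 2 (0.52, adjusted p = 0.00754). Ccng1, a cyclin whose transcription p53 raises, was flatter: 54.9, 70.6, 65.3 and 67.2 CPM in tumor-type barcodes within an immune range of 40.1 to 98.4 CPM. Its TMM difference of −0.72 ± 0.12 (adjusted p = 5.6e-06) stands beside −0.06 ± 0.14 by library size alone, which is −0.67 relative to the median gene.

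Other genes of the same pathways, in lists chosen by knowledge of the pathways, were counted in the same contrast. These counts are to be read against the 36.3% of all genes called higher and the 37.8% called lower. Of 28 further p53 targets tested, 12 were higher and 6 lower in tumor-type barcodes, with a median log2 difference of 0.37 beside −0.05 over all genes. Trp53cor1, the p53-induced long RNA lincRNA-p21, was the most separate, at 32.6, 33.0, 68.6 and 54.3 CPM in tumor-type against 3.88, 2.99, 3.53 and 3.65 CPM in macrophage-type barcodes (4.00 ± 0.26 over the immune mean, adjusted p = 1.9e-12). The cell death gene Bax (−1.66 ± 0.14) and the antiproliferative gene Btg2 (−1.99 ± 0.17) were lower. Of 9 regulators of p53, 6 were tested, with 3 higher and 1 lower: Trp53bp1, a DNA break sensor (1.97 ± 0.14), and Mdm4, the sister of Mdm2 that inhibits p53 (0.86 ± 0.13), were higher, and the deubiquitinase Usp7 was at −0.57 under TMM (adjusted p = 0.00104), and at 0.09 by library size alone, where the median gene stood at 0.61.

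Of 10 genes of the MYC network 3 were higher and 6 lower, with a median of −0.55. The antagonist of MYC Mxi1 (1.06 ± 0.16) and the MAX partner Mga (0.87 ± 0.11) were higher, and Mlx, a relative of MAX, was lower (−1.36 ± 0.21). Of 18 MYC targets 3 were higher and 9 lower (median −0.52), with the nucleolar methyltransferase Fbl (−1.34 ± 0.17), lactate dehydrogenase Ldha (−1.47 ± 0.18) and the polyamine enzyme Odc1 (−1.06 ± 0.14) lower. All 12 genes of the AKT pathway were tested and 8 were higher, with 0 lower (median 0.43). Among them were the mTORC2 subunit Rictor (1.75 ± 0.12), the kinase Gsk3b (0.62 ± 0.10) and the transcription factor Foxo1 (0.66 ± 0.14), in contrast to Akt1 itself. Of 11 partners of BRCA1 5 were higher and 3 lower (median 0.57), with Rbbp8 (0.95 ± 0.10) and Brca2 (1.17 ± 0.22), both of DNA end repair, higher and Babam1 (−1.08 ± 0.15) lower.

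The second comparison set the libraries labelled siFXR1-LNA against those labelled siCont within tumor-type barcodes. Brca1 fell and Myc rose, while Trp53, Cdkn1a, Mdm2, Akt1, Ccng1 and Max did not pass the test. The 2 genes called of 8 stand beside 6.86% of 12543 genes called in the whole table. Both calls depended on the upper limit on genes per barcode and on single libraries, as given with each gene. The groups also differ in mitochondrial share, hemoglobin and Muc16 as given above, and with 2 pools per group these cannot be told apart from the label.

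Brca1 stood at 25.0 and 12.5 CPM in siCont and 5.7 and 3.4 CPM in siFXR1-LNA tumor-type barcodes, and the groups did not overlap. The log2 fold change was −2.04 ± 0.44 (edgeR adjusted p = 0.0134). It rested on 115, 11, 43 and 9 UMIs, and in siFXR1-LNA replicate 2 a single barcode held 44.4% of them. Without the limit on genes the levels were 31.4, 13.03, 7.3 and 9.7 CPM and the change was −1.38 (adjusted p = 0.306). Without siCont replicate 1 it was −1.43 (adjusted p = 0.318). The call held in 14 of 17 alternatives.

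Myc stood at 31.5 and 26.2 CPM in siCont and 87.6 and 55.1 CPM in siFXR1-LNA, again without overlap, and the log2 fold change was 1.31 ± 0.30 (adjusted p = 0.0202). With barcodes over 4800 genes included, the levels became 40.4, 52.1, 89.4 and 49.6 CPM, the groups overlapped, and the change was 0.61 (adjusted p = 0.714). Leaving out siFXR1-LNA replicate 1 gave 0.84 (adjusted p = 0.146), and keeping only barcodes of at most 2% mitochondrial UMIs gave 1.04 (adjusted p = 0.122). In siFXR1-LNA replicate 1 Myc was also high in ungated barcodes, which held 16.9, 7.5, 89.7 and 27.8 CPM over the libraries. Hemoglobin genes took 50.1%, 71.1%, 13.6% and 29.9% of ungated UMIs, which lowers the CPM of other genes there by unequal amounts. The part of RNA from outside the gated cells in the tumor-type Myc level was not tested.

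**Figure D2:**
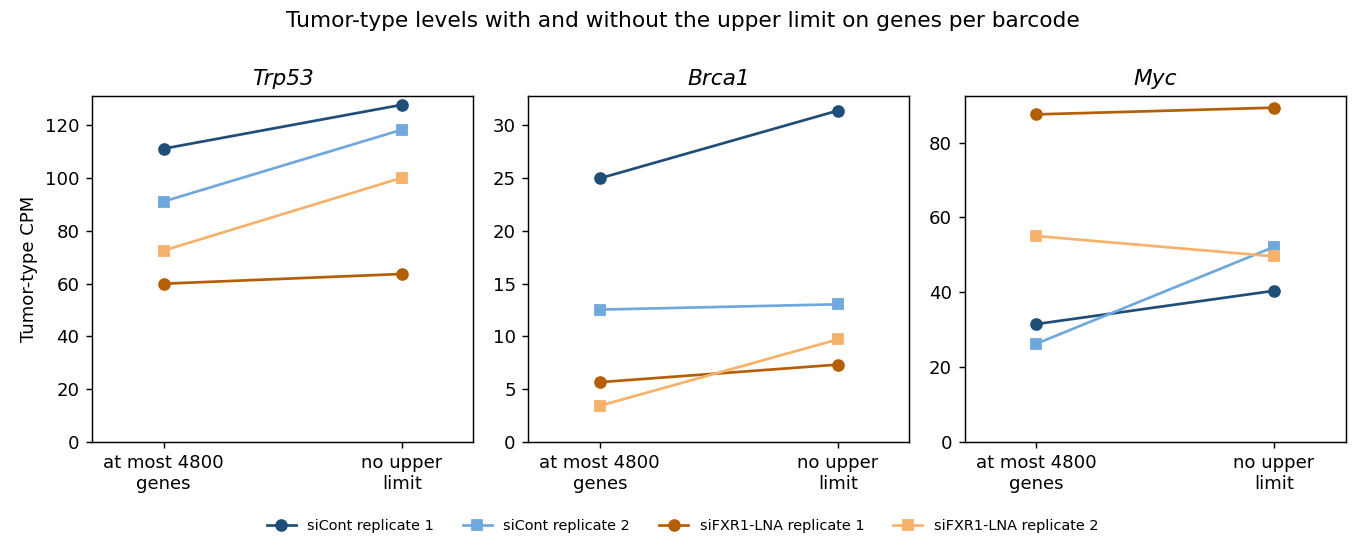
Tumor-type CPM of Trp53, Brca1 and Myc with the limit of 4800 genes per barcode and without it, one line per library. Myc of siCont replicate 2 moved from 26.2 to 52.1 CPM, past siFXR1-LNA replicate 2, while the order of the libraries for Trp53 did not change.

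Trp53 was lower in both siFXR1-LNA tumor-type sums (59.96 and 72.5 CPM) than in both siCont sums (111 and 91.1 CPM), a difference of −0.63 ± 0.24 on the log2 scale that missed the threshold (adjusted p = 0.149). The order held without the limit on genes, at 128 and 118 against 63.6 and 100 CPM. Mdm2 lay the other way, 78.4 and 85.4 against 133 and 102 CPM, with a log2 fold change of 0.54 ± 0.26 (adjusted p = 0.257). Akt1, Ccng1 and Max overlapped between groups, with fold changes of 0.04, 0.11 and 0.34 on the log2 scale and adjusted p from 0.549 to 0.961.

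Cdkn1a UMIs were spread differently over the barcodes of the groups. Its levels were 73.2 and 43.3 CPM in siCont and 124 and 80.9 CPM in siFXR1-LNA (0.80 ± 0.31, adjusted p = 0.154), but the share of tumor-type barcodes with a UMI was 12.1% and 11.01% against 42.2% and 34.1%. In siCont the UMIs sat in few barcodes, with 3.70 and 3.17 UMIs per barcode that had any, and 1 barcode held 63 of 337 UMIs (18.7%) in replicate 1 and 17 of 38 (44.7%) in replicate 2. In siFXR1-LNA the mean was 1.64 and 1.77 UMIs and the top barcode held 1.16% and 5.16%. Ungated barcodes held 41.7, 20.6, 229 and 155 CPM of Cdkn1a, in CPM more than tumor-type barcodes in both siFXR1-LNA libraries and less in both siCont libraries. Hemoglobin genes took 50.1%, 71.1%, 13.6% and 29.9% of ungated UMIs in the same order. This lowers the CPM of other genes there by unequal amounts, so the order in siCont is not settled by these values. The part of RNA from outside the gated cells in this spread was not tested.

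To compare shares at equal depth each barcode was thinned to 1000 UMIs. The share with a Cdkn1a UMI was 3.68% (95% exact binomial interval 2.44 to 5.31) and 1.87% (0.227 to 6.59) in siCont and 11.2% (9.58 to 12.99) and 8.83% (6.08 to 12.3) in siFXR1-LNA, a difference of the group means of 7.24 percentage points. For Myc it was 2.18% (1.25 to 3.52) and 1.87% (0.227 to 6.59) against 8.49% (7.07 to 10.1) and 5.98% (3.74 to 9), a difference of 5.21 points. The group shares were apart for both genes, and also for Ccng1 (4.37%, 3.74%, 6.73% and 5.98%). For Cdkn1a and Myc the interval of siCont replicate 2 overlapped that of siFXR1-LNA replicate 2. How many other genes are apart in this way was not counted. Trp53 (10.2%, 6.54%, 6.15% and 6.27%) and Mdm2 (8.05%, 8.41%, 13.03% and 8.83%) did not overlap between groups. For both, the nearest values lay closer together than 1 barcode of siCont replicate 2, which is 0.935%, so they do not separate the groups. The exact two-sided permutation test over the 4 libraries gave p = 0.333 for each of these genes and for Brca1. This is the smallest p that 2 against 2 libraries can give. Unthinned, 12.95%, 12.8%, 34.0% and 27.6% of tumor-type barcodes held a Myc UMI. Intervals cover counting error only. B-type barcodes, thinned alike, held Cdkn1a in 2.85%, 0.87%, 13.6% and 5.47%, with the groups apart in that type too. Myc was in 3.32%, 3.00%, 6.10% and 3.40% of them. The nearest Myc values, 3.32% and 3.40%, almost met and do not separate the groups, and the B-type fit gave 0.22 ± 0.44 (edgeR adjusted p = 0.875). For Brca1 the thinned shares were 2.32%, 0.935%, 0.293% and 0.57%, from 17, 1, 4 and 2 barcodes, too few to order the libraries. Akt1 and Max shares overlapped between groups (exact permutation p = 1 for both).

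Over all genes tested in the same contrast, 2.83% were called higher and 4.03% lower, and the list counts are to be read against these shares. Among the listed pathway genes, 3 of 28 p53 targets rose and 0 fell, with a median log2 fold change of 0.35 beside 0.0038 over all genes. They were Zmat3, an RNA-binding protein induced by p53 (24.8 and 26.2 against 66.3 and 58.1 CPM; 1.32 ± 0.27, adjusted p = 0.0101), the stress protein Trp53inp1 (56.7 and 60.4 against 177 and 123 CPM; 1.38 ± 0.28, adjusted p = 0.011), and the stress cytokine Gdf15 (4.99 and 6.83 against 15.5 and 15.6 CPM; 1.51 ± 0.42, adjusted p = 0.0465). Of the MYC network, Mxi1 rose (123 and 155 against 431 and 333 CPM; 1.47 ± 0.29, adjusted p = 0.0091), and 0 fell among 8 tested. Of 18 MYC targets 2 rose and 0 fell: the transferrin receptor Tfrc went from 70.1 and 84.3 to 481 and 327 CPM (2.42 ± 0.31, adjusted p = 0.000783), and Ldha from 221 and 223 to 451 and 539 CPM (1.15 ± 0.27, adjusted p = 0.0216). Without the limit on genes none of these 6 genes was called (adjusted p from 0.117 to 0.786), and without siCont replicate 1 the call held for Tfrc and was lost for the other 5 (adjusted p from 0.0573 to 0.371). Gdf15 was called in 8 of 17 alternatives and Ldha in 12 of 18, Ldha also losing the call without siCont replicate 2 (adjusted p = 0.0627) and Gdf15 without siFXR1-LNA replicate 1 (adjusted p = 0.217). Tfrc and Ldha are also known to answer to other signals, Tfrc to iron and Ldha to low oxygen.

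Some partners of Brca1 were lower as well. Bard1, with which BRCA1 forms its ubiquitin ligase, stood at 23.9 and 11.4 CPM in siCont and 2.24 and 0.38 CPM in siFXR1-LNA (−3.50 ± 0.60, adjusted p = 0.0055), from 110, 10, 17 and 1 UMIs, and the helicase Brip1 at 28.0 and 17.1 against 5.39 and 4.56 CPM (−2.19 ± 0.38, adjusted p = 0.00475). These were 2 of 11 listed partners, with 0 higher, beside 4.03% of all genes called lower and 2.83% higher. Leaving out 1 library put Bard1 between −5.54 (without siFXR1-LNA replicate 1) and −2.87 (without siCont replicate 1, adjusted p = 0.106), and Brip1 lost its call without siCont replicate 1 (adjusted p = 0.0882). Without the limit on genes neither was called (Bard1 −2.50, adjusted p = 0.0852, and Brip1 −1.20, adjusted p = 0.306). None of the 12 AKT pathway genes and none of the 6 p53 regulators tested was called by edgeR, with 5 and 1 at an unadjusted p under 0.05, beside 21.9% of all genes tested.

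**Figure D3:**
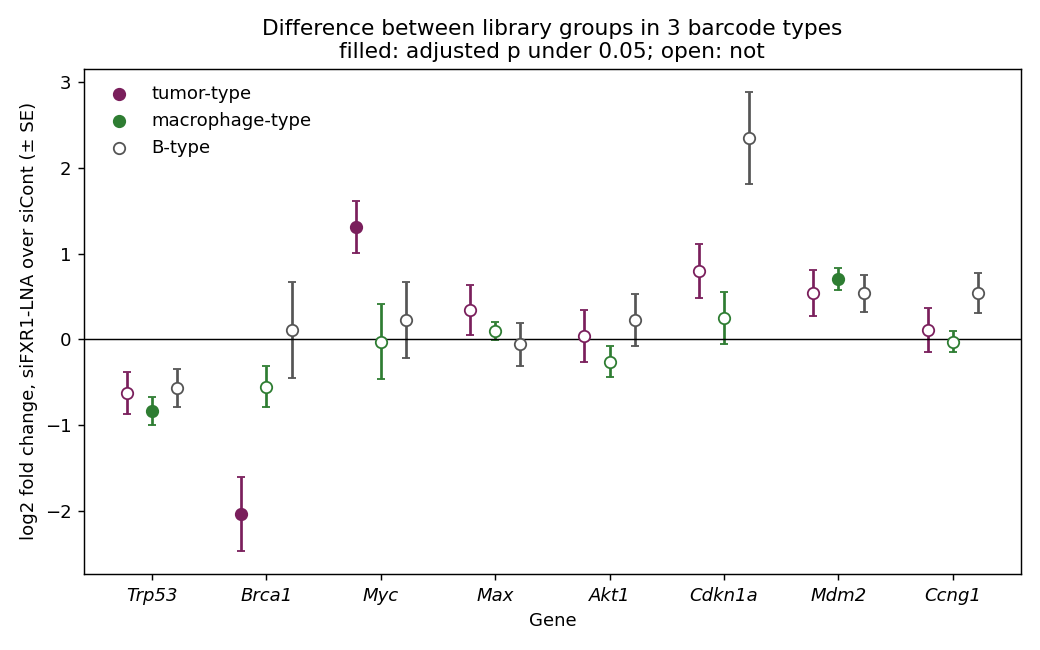
Log2 fold change of siFXR1-LNA over siCont (points, ± SE) of the 8 genes in tumor-, macrophage- and B-type barcodes, filled where the edgeR adjusted p was under 0.05. Brca1 (−2.04) and Myc (1.31) were called in tumor-type, Trp53 (−0.84) and Mdm2 (0.70) in macrophage-type and none in B-type barcodes, while the Trp53 points lay below 0 and the Mdm2 points above 0 in all 3 types.

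The same contrast was made in macrophage- and B-type barcodes, types of the host. In macrophage-type barcodes Trp53 was lower, at 77.9 and 71.7 against 31.8 and 43.4 CPM (−0.84 ± 0.16, adjusted p = 0.0372), and Mdm2 higher, at 55.4 and 55.2 against 84.8 and 76.4 CPM (0.70 ± 0.13, adjusted p = 0.0343). These 2 of 8 stand beside 11.4% of 13934 genes called. Leaving out siFXR1-LNA replicate 1 or 2 left 0 genes called in the table by edgeR, and gave Trp53 −0.64 and −1.03 (adjusted p = 0.212 and 0.0878) and Mdm2 0.61 and 0.82 (adjusted p = 0.195 and 0.0939). Myc (20.6, 42.6, 33.4 and 22.2 CPM), Brca1 (5.9, 6.7, 3.7 and 3.9 CPM) and Cdkn1a overlapped or did not pass, with adjusted p of 0.971, 0.184 and 0.609.

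In the macrophage-type contrast the BRCA1 partners Bard1 (−2.08 ± 0.26) and Brip1 (−1.78 ± 0.29) fell. Mxi1 (2.22 ± 0.17) and Mxd1 (2.67 ± 0.13), both antagonists of MYC, rose, and Mxd3 fell (−2.26 ± 0.45). Of 28 p53 targets Trp53inp1 (1.46 ± 0.23) and Sesn2 (0.87 ± 0.19) rose and 0 fell. Phlpp1 (1.49 ± 0.18), a phosphatase that opposes AKT signaling, rose, and the p53 regulators Cdkn2a (−2.58 ± 0.45) and Chek2 (−1.16 ± 0.25) fell. Of 18 MYC targets 1, Nop56, fell (−0.64 ± 0.13). Over all genes tested in this contrast 6.03% were called higher and 5.42% lower. The counts of p53 targets and MYC targets lay near these shares and say little in themselves.

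B-type barcodes gave no call among the 8 genes, beside 0.509% of 12184 genes called by edgeR; at an unadjusted p under 0.05 there were 3, Trp53, Mdm2 and Cdkn1a, beside 12.9% of all genes. Cdkn1a stood at 27.4 and 10.6 CPM in siCont and 149 and 68.1 CPM in siFXR1-LNA (2.35 ± 0.54, adjusted p = 0.145, and 0.000316 by DESeq2). Trp53 lay at 97.0 and 81.3 against 63.5 and 70.9 CPM (−0.57 ± 0.22, adjusted p = 0.359) and Mdm2 at 34.1 and 31.96 against 57.1 and 50.4 CPM (0.53 ± 0.22, adjusted p = 0.38). The directions of Trp53 and Mdm2 were those of the other types, without passing the test.

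Whether the group difference itself differed between tumor-type and macrophage-type barcodes was tested as an interaction, in which 0.683% of 15522 genes were called and 0 of the 8 by edgeR, with Brca1 and Myc at an unadjusted p under 0.05, beside 11.2% of all genes. The interaction was −1.44 ± 0.59 for Brca1 (adjusted p = 0.365) and 1.19 ± 0.43 for Myc (adjusted p = 0.308), and DESeq2 also called 0 of the 8. Single libraries changed this: without siCont replicate 1, Myc (2.04, adjusted p = 0.000191) and Cdkn1a (1.43, adjusted p = 0.0148) passed, without siCont replicate 2 Brca1 passed (−1.93, adjusted p = 0.039), and without the low-count filter Myc passed (1.19, adjusted p = 0.0287). For the other 6 genes it ranged from −0.11 to 0.53 with adjusted p from 0.743 to 0.93. No difference between the types held over these choices.

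Levels of Trp53 and Mdm2 ran opposite to each other over the 24 sums of 6 types in 4 libraries, with Pearson r of −0.87 on TMM-scaled log2 CPM. Cdkn1a and Mdm2 (r = 0.72), Cdkn1a and Ccng1 (r = 0.68) and Mdm2 and Ccng1 (r = 0.51) ran together. So did pairs that are not both p53 targets: Akt1 and Max (r = 0.70), Ccng1 and Max (r = 0.68) and Akt1 and Ccng1 (r = 0.63). These values therefore do not set the p53 targets apart. The sums share libraries and depth and are not independent. The plot of both genes shows CPM without TMM scaling, on which tumor-type sums stand higher for both genes against the immune sums than under TMM scaling.

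**Figure D4:**
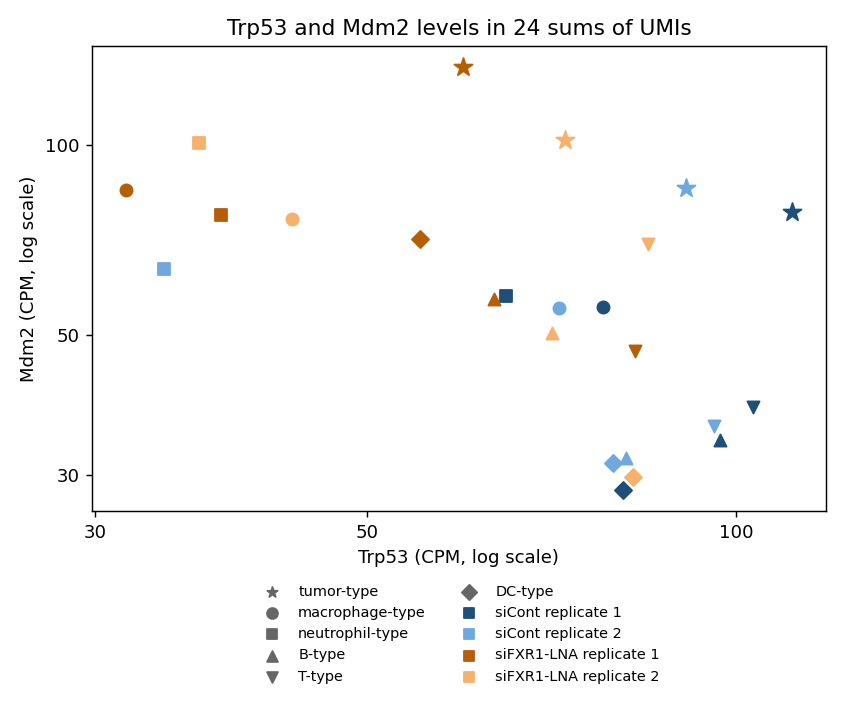
Trp53 against Mdm2 in CPM, both on log axes, for 24 sums; symbols give the barcode type (stars are tumor-type) and colors the library. Immune sums run from high Trp53 and low Mdm2 to low Trp53 and high Mdm2, and on this scale, without TMM scaling, the tumor-type stars lie above them.

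The genes most like each member over the same 24 sums were Dut, Prim1 and Rbl1 for Trp53 (r from 0.88 to 0.90), Ulbp1, Cenpt and Rtn4ip1 for Brca1 (0.90 to 0.94), and Lars, Brix1 and Zfas1 for Myc (0.80 to 0.84). For Akt1 they were Arpc2, Rhog and Arpc5 (0.95 to 0.97) and for Max Adipor1, Anxa11 and Lyst (0.94 to 0.95). Cdkn1a went with 9530068E07Rik, Vapa and Cd63 (0.91 to 0.94), Mdm2 with A530013C23Rik, Ell and Nfil3 (0.90 to 0.92), and Ccng1 with Fas, Neu1 and H3f3b (0.87 to 0.90). Fas, a death receptor gene, was on the list of p53 targets.

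The tumor-type barcodes were also divided by cycling genes, as BRCA1 is made mainly in dividing cells. A cycling barcode had at least 3 UMIs over Mki67, Top2a, Cenpf, Cenpe, Kif11, Tpx2, Cdk1 and Ccnb1, and a non-cycling one had 0. Cycling barcodes were 118 of 749 (15.8%, 95% exact binomial interval 13.2 to 18.6) and 6 of 109 (5.5%, 2.05 to 11.6) in siCont, and 31 of 1369 (2.26%, 1.54 to 3.20) and 5 of 352 (1.42%, 0.463 to 3.28) in siFXR1-LNA. Without the limit of 4800 genes cycling barcodes were 145 of 822 and 24 of 175 in siCont. In siFXR1-LNA they were then 42 of 1431 and 36 of 526, so the shares of the second replicates depended on the limit. With the limit only the first replicates had the 10 cycling barcodes a sum required, so the test compared 2 libraries with themselves. Its p-values rest on variance that edgeR shares over genes, as 2 libraries give almost no spread of their own.

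Brca1 was the one member that differed. Cycling barcodes held 88.9 CPM in siCont replicate 1 and 112 CPM in siFXR1-LNA replicate 1, and non-cycling barcodes 7.2 and 1.9 CPM, a log2 difference of 4.61 ± 0.38 (adjusted p = 1e-30) that stayed between 4.19 and 4.70 over 8 alternatives. In these libraries 80 of 115 and 31 of 43 Brca1 UMIs of the tumor gate lay in cycling barcodes. The 1 call of 8 stands beside 5.09% of 10859 genes called. Brca1 in non-cycling barcodes was 7.2, 5.4, 1.9 and 2.2 CPM over the 4 libraries, and the fit between groups on these barcodes gave −1.66 (adjusted p = 0.131). The part of the cycling share in the −2.04 over all tumor-type barcodes was not tested beyond this fit.

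The other 7 genes did not pass the test between cycling and non-cycling barcodes. Cdkn1a, the cell cycle inhibitor, was lower in cycling barcodes of siCont replicate 1 (33.3 against 80.1 CPM) and not in siFXR1-LNA replicate 1 (134 against 123 CPM), at −0.62 ± 0.27 (adjusted p = 0.22). Myc was at 32.2 and 31.5 CPM and at 72.2 and 85.0 CPM. Of the BRCA1 partners 6 of 11 were higher and 0 lower, with a median of 1.92 beside −0.04 over all genes, led by Brip1 (4.01 ± 0.37), Bard1 (4.81 ± 0.46) and Fancd2 (4.36 ± 0.48). Of 25 p53 targets tested, Ckap2 (5.28 ± 0.31), a spindle protein, and Psrc1 (2.09 ± 0.34), also of the spindle, were higher and 0 lower. Chek2 (2.91 ± 0.45) was the 1 p53 regulator called and Mxd4 (−1.05 ± 0.32) the 1 gene of the MYC network. Over all genes tested in this contrast 3.93% were called higher and 1.16% lower.

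**Figure D5:**
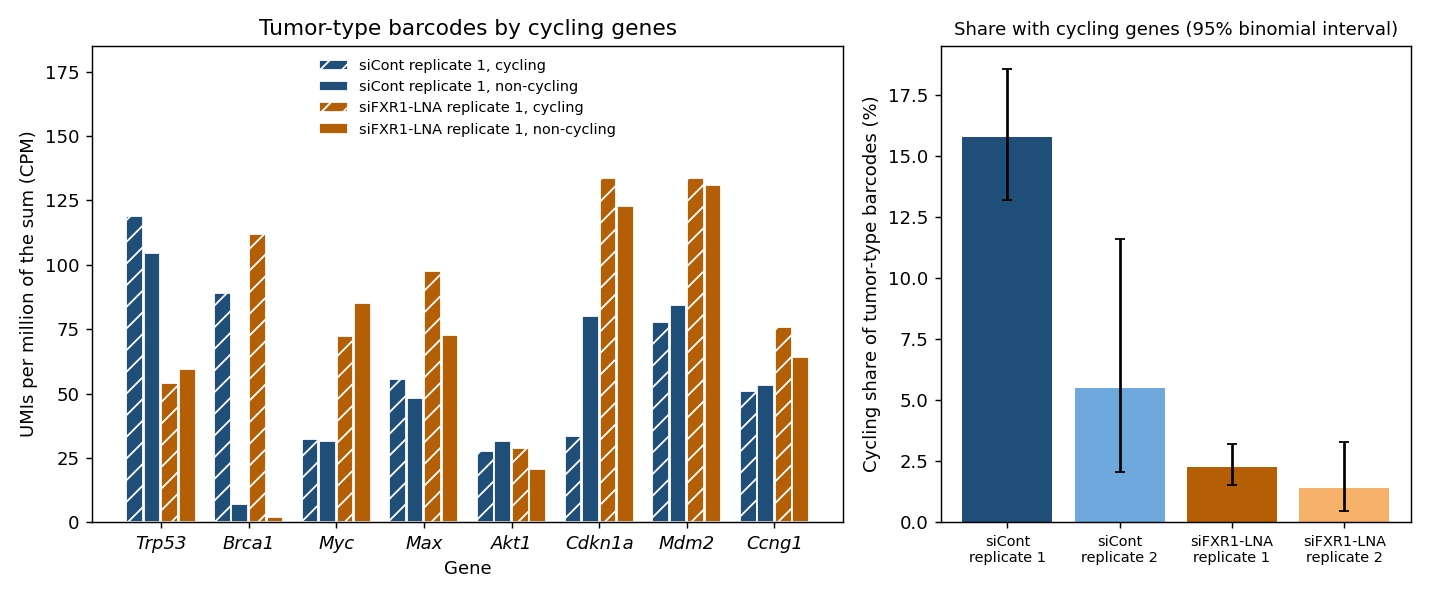
Left, CPM of the 8 genes in cycling (hatched) and non-cycling (plain) tumor-type barcodes of the 2 libraries with enough cycling barcodes; right, the percent of tumor-type barcodes that were cycling in each library, with 95% exact binomial intervals. Brca1 stands at 88.9 and 112 CPM in cycling barcodes and 7.2 and 1.9 CPM in the others, and the cycling share runs from 15.8% to 1.42%. Both panels keep the limit of 4800 genes per barcode, on which the shares of the second replicates depended.

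Lastly, tumor-type barcodes with at least 3 UMIs over the mesothelial genes Msln, Upk3b, Upk1b, Lrrn4, Muc16 and Krt19 were set against those with 0, as these genes mark both ovarian tumors and the host lining. By edgeR 0 of the 7 members tested were called, with 0 at an unadjusted p under 0.05, beside 2.58% of 8870 genes called and 17.7% at an unadjusted p under 0.05. Log2 differences ran from −0.29 for Max to 0.32 for Akt1, with adjusted p from 0.507 to 0.995. Trp53 stood at 111, 100, 63.9 and 73.8 CPM in mesothelial-high and 141, 91.0, 51.8 and 72.6 CPM in mesothelial-zero barcodes. Brca1 was too low to be tested, with 100, 8, 28 and 8 UMIs in mesothelial-high and 1, 2, 4 and 0 in mesothelial-zero barcodes. Of 19 listed p53 targets tested 1 was lower and 0 higher in mesothelial-high barcodes, beside 0.372% of all genes called lower and 2.21% higher. It was Sesn1, a stress protein that restrains mTOR (−0.74 ± 0.15, adjusted p = 0.0166), and its call held in 9 of 12 alternatives.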

How the data were processed

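For 4 libraries of ascites the authors deposited raw UMI counts of each gene in each barcode; Cell Ranger 7.0.0 and mm10 are named per the labels; the study's methods also name another version, and the sources differ on the kit. Barcodes of 100 to 4800 genes with at most 15% mitochondrial UMIs were kept, the study's stated filter. This kept 36311 and 25115 barcodes in siCont replicates 1 and 2, far more than the study's cell count for siCont. The study's count also leaves out a siFXR1-LNA library used here, so the denominators differ. What else separates the counts was not tested. A type needed at least 5 UMIs over 1 marker list; barcodes past 2 or more lists were set aside, and no doublet caller was run. Counts were summed per library and type (at least 10 barcodes) and tested in R 4.3.3 with edgeR 4.0.16 (quasi-likelihood, TMM, filterByExpr, Benjamini-Hochberg, threshold 0.05); the SE is the fold change over the root of F. DESeq2 1.42.0, other gates, filters and scalings, and leaving out each library were alternatives. Fits were tested on simulated data. Members, lists and tests were chosen with earlier results of these data known. All 8 members were named, and per list the 3 called genes of smallest p, except for some results that are not reported here. p-values measure the spread between these pooled libraries, with variance shared over genes by edgeR. In the cycling contrast, with 2 libraries, they rest almost wholly on that shared variance. Shares used Python 3.11.15 and SciPy 1.17.1.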

Additional observations from a re-analysis of the deposited data

How the results depend on the processing

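Results are log2 differences unless given as counts of genes. The alternatives on depth, leukocyte UMIs, mitochondrial share, cycling and library size scaling were chosen after seeing the data. For siFXR1-LNA against siCont, tumor-type barcodes gave 861 genes, 33 without the upper gene limit, 1421 without the low-count filter, 221 without barcodes holding leukocyte UMIs, and 596 to 1648 when 1 library was left out (1648 without siFXR1-LNA replicate 2). Macrophage-type barcodes gave 1595, and 2428 with barcodes past 2 gates given to the larger sum, 2406 by DESeq2, 2840 without the filter and 0 to 2453 with 1 library left out (0 without either siFXR1-LNA library). B-type barcodes gave 62, and 164 by the larger sum, 96 without hemoglobin genes, 352 by DESeq2, 892 without the filter and 38 to 694 with 1 library left out. The interaction gave 106, and 2 without the upper limit, 620 without the filter, 64 by library size alone and 0 to 1337 with 1 library left out (0 without siFXR1-LNA replicate 1). The cycling contrast gave 553, and 1034 without the upper limit and 219 by DESeq2. The mesothelial contrast gave 229, and 1958 without the upper limit, 632 without the filter, 138 with a gate of 2 UMIs and 33 to 484 with 1 library left out. The causes were not tested.

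Same-numbered libraries deviated together with r of 0.034, 0.232 and 0.231 in tumor-, macrophage- and B-type sums, over 2 pairs, and the labels tie no number to a shared batch. With the replicate number as a block the counts were 1373, 2101 and 605; the block put Akt1 at −0.0052 in tumor-type and Myc at 0.028 in macrophage-type barcodes, and called Cdkn1a in B-type barcodes (2.39, adjusted p = 0.00062).

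Signs that turned were these. Against the immune mean, Trp53 was 0.017 and Myc 0.083 without the upper limit, and Trp53 0.34, Myc 0.45 and Usp7 0.086 by library size alone, which also gave Mdm2 0.41 against neutrophil-type, Ccng1 0.12 and Trp53 0.086 against B-type and Trp53 0.15 against DC-type barcodes. The values by library size alone carry the shift of the median gene: relative to it Trp53 was −0.28, Myc −0.16, Mdm2 against neutrophil-type −0.45, Ccng1 and Trp53 against B-type −0.42 and −0.46, and Trp53 against DC-type −0.51, all of the sign under TMM. Between groups in tumor-type barcodes, Ccng1 was −0.027 and Akt1 −0.00027 in barcodes of at least 5000 UMIs, and Akt1 was −0.051 by the larger sum, −0.090 at up to 2% mitochondrial UMIs and −0.11 in non-cycling barcodes. Macrophage-type Ccng1 was 0.034 by the larger sum and Max −0.059 by library size alone (0.10 relative to the median gene), and B-type Max was 0.11 by library size alone (−0.05 relative to the median gene). In the cycling contrast Ccng1 was 0.027 with a tumor gate of 10 UMIs and 0.15 with a cycling gate of 2, Trp53 −0.039 by DESeq2 and −0.069 without the filter, Max −0.29 and Akt1 0.38 without the upper limit, and Akt1 0.033 by DESeq2 and 0.031 with a cycling gate of 2. In the mesothelial contrast Trp53 was −0.0066 by RLE, −0.00064 by DESeq2 and −0.021 with a gate of 2. The Max share differed by 0.58 percentage points when thinned to 500 UMIs, 2.58 unthinned and 0.50 with a tumor gate of 10.

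Leaving out 1 library gave ranges across 0 as follows. Tumor-type: Ccng1 −0.14 to 0.32, Max −0.14 to 0.70, Akt1 −0.20 to 0.28. Macrophage-type: Ccng1 −0.11 to 0.065, Myc −0.48 to 0.61, Cdkn1a −0.087 to 0.69. B-type: Brca1 −0.34 to 0.75, Max −0.42 to 0.17, Akt1 −0.27 to 0.58, Myc −0.76 to 0.82. Interaction: Mdm2 −0.32 to 0.071, Max −0.22 to 0.69, Akt1 −0.011 to 0.76, Cdkn1a −0.20 to 1.43. Mesothelial: Ccng1 −0.039 to 0.38, Trp53 −0.13 to 0.19, Cdkn1a −0.13 to 0.54. Shares in percentage points: Akt1 −0.84 to 1.23, Max −4.60 to 1.59. No library could be left out of the cycling contrast, which had 2. Counts of 109 tumor-type barcodes and 11 Brca1 UMIs in siCont replicate 2 limit what can be seen there.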
